A study of Mus musculus with 4 samples.

Results

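The genes described here are 40 genes of the cell cycle and DNA replication, grouped by the step they serve. The choice was made by name, with earlier results of these data known. All 40 were found in the expression table of 23735 loci, each on a locus of its own. They were 11 cyclins, kinases, inhibitors and an E2F factor of G1 (the growth phase before DNA synthesis), 11 genes of DNA replication, and 18 genes of G2 (the phase after DNA synthesis) and mitosis. The table holds RNA-seq values for mouse peritoneal macrophages, collected 3 days after an injection of 3% thioglycolate (an irritant that recruits macrophages) and then cultured. All mice were C57BL/6, 6 weeks old and labelled ApoE-/-, so both groups are labelled as lacking apolipoprotein E. The groups were Ch25h_WT (genotype ApoE-/-/Ch25h+/+) and Ch25h_KO (genotype ApoE-/-/Ch25h-/-, lacking cholesterol 25-hydroxylase), with 2 libraries each. Each group came from 12 mice and was sequenced in duplicate, and how the mice were shared out over the libraries is not given, so p-values measure the spread between these libraries, which may be partly technical.

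Elicited macrophages are mostly non-dividing cells. In dividing cells, D-type cyclins with Cdk4 or Cdk6 and then E-type cyclins with Cdk2 release E2F factors from the RB protein family, and E2F factors raise the enzymes of DNA replication. Genes of G2 and mitosis are raised later, through promoters that carry a cell cycle homology region (CHR) near CCAAT boxes, the binding sites of MuvB complexes (with FOXM1 or B-MYB) and of NF-Y. In bulk RNA, fewer dividing cells and less RNA per cell cannot be told apart.

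Promoter windows were examined first, since they show how the groups of genes differ in sequence. RefSeq windows (build GRCm38.p6, 250 bases before to 50 after a start site) were present for 33 of the 40 genes, as 36 windows, and not for Ccnd1, Ccnd2, Ccne2, Mcm4, Ccna2, Aurkb and Tpx2. CHR letters (TTTGAA or TTCGAA, either strand) occurred in 13 of 15 windows of the mitosis genes (86.7%), in 2 of 11 windows of the replication genes and in 0 of 10 windows of the G1 genes, against 19.2% of all 32851 windows. CCAAT letters occurred in 14 of the 15 mitosis windows and in 9 of the 11 replication windows, against 37.4% of all windows. E2F letters (TTCCCGC or TTGGCGC, either strand) occurred in 6 of the 11 replication windows (54.5%), 3 mitosis windows and 1 G1 window, against 6.81% of all windows. E2F and CCAAT matches can share bases, as where the reverse complement of TTGGCGC is followed by T. A match is a description of letters, not a binding site. Not every window is clean upstream sequence. All 250 bases before the start lay inside the annotated gene itself for E2f1, Cdk6, Cdca8, both Mcm7 windows and the later windows of Cdkn1a and Ccnd3. For Cdk2 and Tk1 they lay inside another gene. In 31 of the 36 windows the bases just after the start were found near the start of an annotated transcript.

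**Figure D1:**
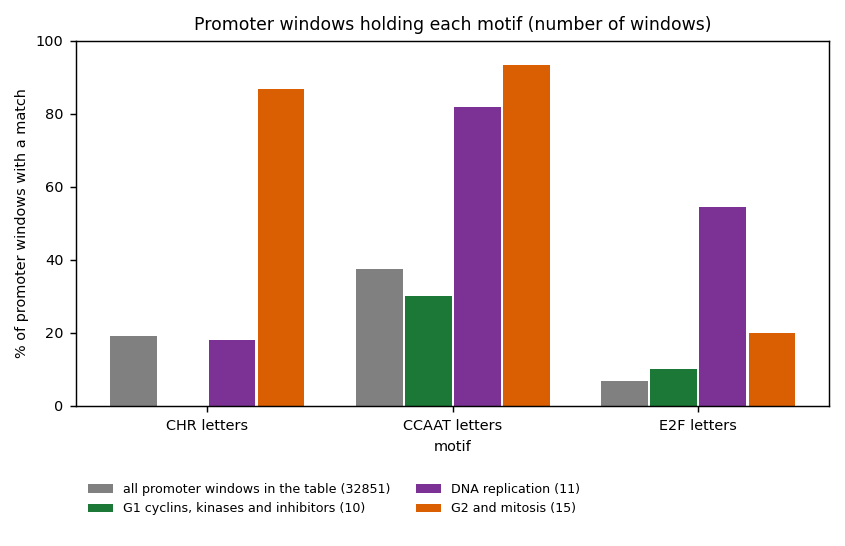
Percent of promoter windows (y axis) that hold CHR, CCAAT or E2F letters (x axis), for all RefSeq windows in the table and for the windows of the G1, replication and mitosis genes. The CHR bar is at 86.7% for mitosis genes and 19.2% for all windows, and the E2F bar is at 54.5% for replication genes and 6.81% for all windows.

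The bases before the start site are printed for 5 genes, 5′ to 3′ on the gene's strand, with CHR, CCAAT and E2F matches in capitals. Top2a, Bub1b and Birc5 are mitosis genes with some of the smallest p-values described further on, Mcm6 stands for the replication genes and Cdk4 for the G1 genes. In the printed bases, the Top2a window (chr11:99024190-99024439, minus strand) holds 4 CHR and 6 CCAAT matches, and the Bub1b window (chr2:118597961-118598210, plus strand) holds 1 of each. A further CHR match of Bub1b (TTTGAA) lies after the start site, outside the printed bases. The Birc5 window (chr11:117848987-117849236, plus strand) and the Cdk4 window (chr10:127063285-127063533, plus strand) hold none of the 3 motifs. The Mcm6 window (chr1:128359706-128359955, minus strand) holds 2 E2F and 2 CCAAT matches. All of the printed bases lie upstream of their gene and in no gene or exon annotated in GENCODE vM21.
Top2a: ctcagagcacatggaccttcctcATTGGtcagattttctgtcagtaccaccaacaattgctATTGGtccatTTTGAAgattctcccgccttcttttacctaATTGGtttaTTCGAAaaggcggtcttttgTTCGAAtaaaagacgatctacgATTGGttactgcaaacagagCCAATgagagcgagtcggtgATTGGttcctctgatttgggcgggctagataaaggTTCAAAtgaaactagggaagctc
Bub1b: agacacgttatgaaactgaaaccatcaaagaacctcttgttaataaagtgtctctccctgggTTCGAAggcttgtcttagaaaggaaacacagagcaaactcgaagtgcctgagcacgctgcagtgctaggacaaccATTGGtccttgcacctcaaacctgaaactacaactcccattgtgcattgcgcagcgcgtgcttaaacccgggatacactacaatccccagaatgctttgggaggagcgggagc
Birc5: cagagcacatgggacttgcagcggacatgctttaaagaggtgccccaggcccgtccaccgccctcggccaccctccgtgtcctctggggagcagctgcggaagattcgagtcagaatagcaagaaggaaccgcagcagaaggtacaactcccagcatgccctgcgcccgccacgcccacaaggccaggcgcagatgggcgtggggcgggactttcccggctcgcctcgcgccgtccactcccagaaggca
Mcm6: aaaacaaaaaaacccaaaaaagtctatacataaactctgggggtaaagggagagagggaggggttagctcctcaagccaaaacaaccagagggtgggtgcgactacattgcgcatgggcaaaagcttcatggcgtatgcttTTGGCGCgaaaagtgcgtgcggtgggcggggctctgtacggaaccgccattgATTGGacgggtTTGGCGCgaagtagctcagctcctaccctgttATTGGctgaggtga
Cdk4: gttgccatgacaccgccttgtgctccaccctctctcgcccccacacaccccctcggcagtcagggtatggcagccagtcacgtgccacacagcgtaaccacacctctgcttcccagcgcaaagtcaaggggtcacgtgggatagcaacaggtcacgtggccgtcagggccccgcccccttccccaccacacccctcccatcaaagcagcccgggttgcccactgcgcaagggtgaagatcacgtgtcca

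The levels of the 40 genes ran from 0.238 to 134 FPKM in the mean of the 4 libraries (FPKM are fragments scaled to transcript length and to the fragments mapped in a library). Cdkn1a (134 FPKM), Pcna (130) and Cdk4 (107) were far above the rest, followed by Ccnd3 (22.7), Mcm3 (19.7) and Cdkn1b (11.3). No mitosis gene had a mean above that of Mki67, which lay between 9.25 and 10.3 FPKM in the 4 libraries. Bub1 (0.594 FPKM) and Ccne2 (0.238) lay under the filter of 1 FPKM in the mean of the 4 libraries, and the next genes above it were Tk1 (1.17) and Kif11 (1.28), so 38 of the 40 were tested. Ch25h itself was 63.3 and 65.3 FPKM in Ch25h_WT and 4.25 and 5.53 FPKM in Ch25h_KO. Apoe was 614 and 610 FPKM in Ch25h_WT and 3683 and 3373 FPKM in Ch25h_KO, in mice that are all labelled ApoE-/-, so a further difference between the groups at Apoe stands beside every comparison below and its part was not tested. The implied depth was 9520000 to 12400000 fragments per library.

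**Figure D2:**
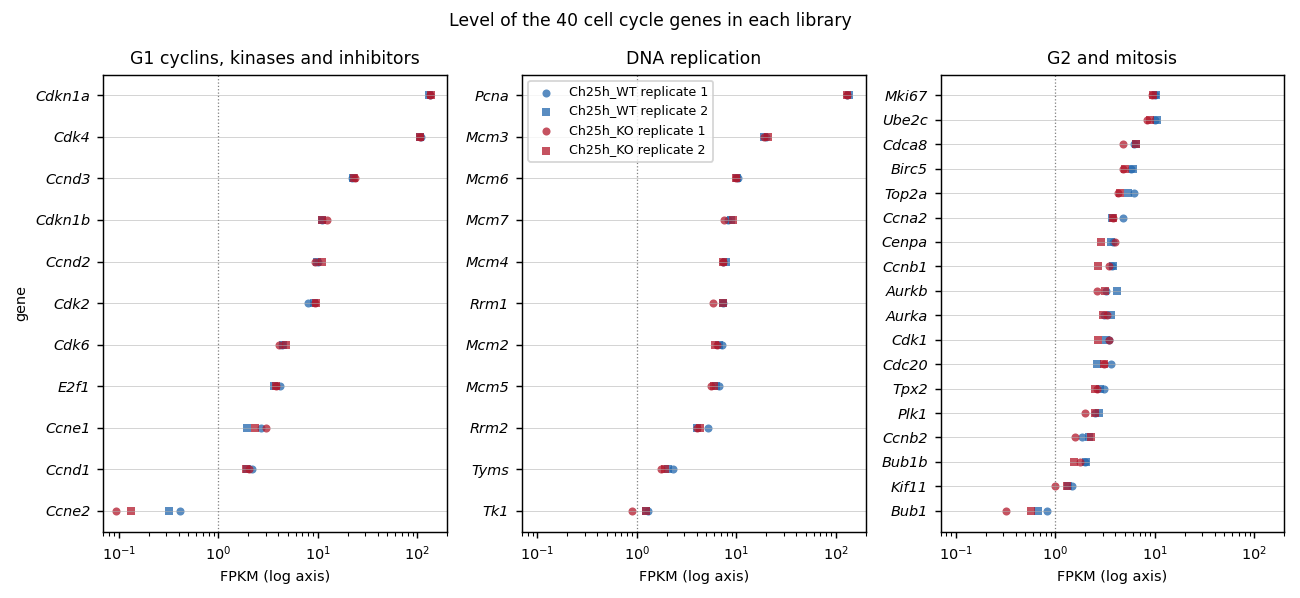
FPKM on a log axis for each of the 40 genes (rows, ordered by mean) in the 4 libraries, blue for Ch25h_WT and red for Ch25h_KO, with circles for replicate 1 and squares for replicate 2, and a dotted line at the filter of 1 FPKM. The 4 points of most G1 genes lie on each other, while in Top2a, Birc5 and Ube2c both Ch25h_KO points lie to the left of both Ch25h_WT points.

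None of the 38 tested genes passed the threshold between genotypes (limma, Benjamini-Hochberg adjusted p under 0.05 over 10074 loci), where 0.437% of all tested loci passed. Their smallest adjusted p was 0.13. At unadjusted p under 0.05 there were 4 on the lower side in Ch25h_KO, which is 10.5% of the 38 against a background of 11.5% of all loci, and 0 on the higher side against 9.38%. Both Ch25h_KO libraries lay below both Ch25h_WT libraries in 17 of the 38 (44.7%, background 30.3%) and above them in 3 (background 23.4%). The mean was lower in Ch25h_KO in 31 of the 38 (81.6%), against 54.3% of all loci. After median centring of the libraries 29 means were lower and 13 genes lay lower with no overlap (background 28.1%), and after quantile normalization 28 and 14 (background 27.7%). The steps of the cycle differed in these values, and are described in turn.

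The G1 genes lay at nearly the same level in both genotypes. Their median log2(FPKM + 1) difference, Ch25h_KO minus Ch25h_WT, was 0.027, against -0.014 over all tested loci, with 4 of 10 tested means lower and 6 higher. Without Ch25h_WT replicate 2 the median was -0.0012, so it has no stable side. Summed over the 11 genes the level was 307 and 303 FPKM in Ch25h_WT and 309 and 310 FPKM in Ch25h_KO. Most of this sum was Cdkn1a and Cdk4, so it says little of the other G1 genes.

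Among D-type cyclins, which activate Cdk4 and Cdk6, Ccnd3 was the most abundant at 22.1 and 22.4 FPKM in Ch25h_WT and 23.6 and 22.9 FPKM in Ch25h_KO. Ccnd2 was 10.1 and 9.87 against 9.34 and 10.9 FPKM, and its groups overlapped. Ccnd1 was 2.2 and 1.93 against 2.02 and 1.90 FPKM, and the higher Ch25h_KO library lay between those of Ch25h_WT. The order Ccnd3, Ccnd2, Ccnd1 held in each of the 4 libraries with no overlap. Their kinase Cdk4 was 109 and 107 against 107 and 106 FPKM, with a 95% interval of the log2 difference from -0.16 to 0.11 (limma adjusted p = 0.82). Cdk6, the related kinase, was 4.41 and 4.44 against 4.12 and 4.74 FPKM, with an interval from -0.20 to 0.19 (limma adjusted p = 0.99).

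Cdk2, the kinase of the E-type cyclins, was 7.92 and 9.25 FPKM in Ch25h_WT and 9.44 and 9.67 FPKM in Ch25h_KO (limma adjusted p = 0.39). The Ch25h_WT libraries differed from each other by more than the gap to the nearer Ch25h_KO library. Ccne1 was 2.71 and 1.95 against 3.04 and 2.35 FPKM, with overlapping groups. Ccne2, the other E-type cyclin, was 0.408 and 0.319 FPKM in Ch25h_WT and 0.0929 and 0.133 FPKM in Ch25h_KO. This corresponds to about 15, 9, 3 and 4 fragments. Ccne2 lay under the filter, and with no filter its log2 difference was -0.29 (SE 0.057, unadjusted p = 0.0064, limma adjusted p = 0.16). E2f1, the factor that RB holds back, was 4.13 and 3.61 against 3.79 and 3.84 FPKM, with both Ch25h_KO values between those of Ch25h_WT.

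The inhibitors of the cyclin-dependent kinases did not pass either. Cdkn1a (p21, the inhibitor raised by p53) was 133 and 131 FPKM in Ch25h_WT and 135 and 137 FPKM in Ch25h_KO. The groups did not overlap, but the 95% interval of the log2 difference ran from -0.10 to 0.18 (limma adjusted p = 0.69). Cdkn1b (p27) was 11 and 10.9 against 12.3 and 10.9 FPKM, so only Ch25h_KO replicate 1 stood above the others. The level of Cdkn1a was above that of each other member in both Ch25h_KO libraries and in Ch25h_WT replicate 1, and was below Pcna in Ch25h_WT replicate 2.

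Of the 11 replication genes, 10 had a lower mean in Ch25h_KO (90.9%, background 54.3%), and in 6 (54.5%, background 30.3%) both Ch25h_KO libraries lay below both Ch25h_WT libraries. Their median log2 difference was -0.10, and it was -0.032 without Ch25h_KO replicate 1 and -0.15 without Ch25h_WT replicate 2. None reached an unadjusted p under 0.05 in limma with all libraries, and the smallest adjusted p was 0.25. Summed, they were 206 and 207 FPKM in Ch25h_WT and 196 and 203 FPKM in Ch25h_KO, and most of this sum was Pcna.

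Mcm2 to Mcm7 encode the 6 subunits of the helicase that opens DNA at the fork, and these subunits act as a single ring. Mcm2 was 7.25 and 6.70 FPKM in Ch25h_WT and 6.34 and 6.05 FPKM in Ch25h_KO, a log2 difference of -0.15 (SE 0.063, limma adjusted p = 0.28). Mcm5 was 6.62 and 6.18 against 5.62 and 5.92 FPKM, and Mcm6 was 10.4 and 10.2 against 9.94 and 9.91 FPKM, both with no overlap. Mcm3, Mcm4 and Mcm7 overlapped between the groups. Mcm3 was 19.9 and 19 against 19 and 20.8 FPKM, the replication gene with a higher mean in Ch25h_KO, and that sign turned without Ch25h_WT replicate 2 or Ch25h_KO replicate 2. Mcm7 was 8.24 and 8.82 against 7.49 and 9.21 FPKM, so the Ch25h_KO libraries held both the lowest and the highest value.

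Pcna, the clamp that holds DNA polymerase on its template, was 130 and 134 against 128 and 129 FPKM, with a 95% interval of the log2 difference from -0.18 to 0.10 (limma adjusted p = 0.71). Its level was more than an order above that of most other replication genes. The 4 genes that supply nucleotides had lower means. Rrm1, the large subunit of ribonucleotide reductase, was 7.34 and 7.40 against 5.80 and 7.27 FPKM, and Ch25h_KO replicate 1 accounted for most of the gap. Rrm2, the small subunit, was 5.13 and 4 against 4.02 and 4.35 FPKM, and there Ch25h_WT replicate 1 stood above the other libraries. Tyms, which makes thymidylate, was 2.30 and 2.05 against 1.73 and 1.90 FPKM, with a log2 difference of -0.18 (SE 0.069, limma adjusted p = 0.25). Tk1, the thymidine kinase of dividing cells, was 1.30 and 1.23 against 0.898 and 1.24 FPKM, and its groups overlapped.

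All 17 tested genes of G2 and mitosis had a lower mean in Ch25h_KO, or 16 of 17 after median centring or quantile normalization, where Cdc20 turned, against 54.3% of all tested loci as deposited. In 10 of them (58.8%, background 30.3%) both Ch25h_KO libraries lay below both Ch25h_WT libraries, and in 8 after either scaling. Their median log2 difference was -0.17, against -0.014 over all tested loci. Summed over the 18 genes the level was 75.5 and 75.2 FPKM in Ch25h_WT and 64.2 and 66.3 FPKM in Ch25h_KO, or 0.866 of the Ch25h_WT level. None passed over all loci, and 4 (23.5%, background 11.5%) had an unadjusted p under 0.05 in limma, all on the lower side. With any of the 4 libraries left out, 15 of 17 means were lower, against 52.8% to 55.5% of all loci.

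**Figure D3:**
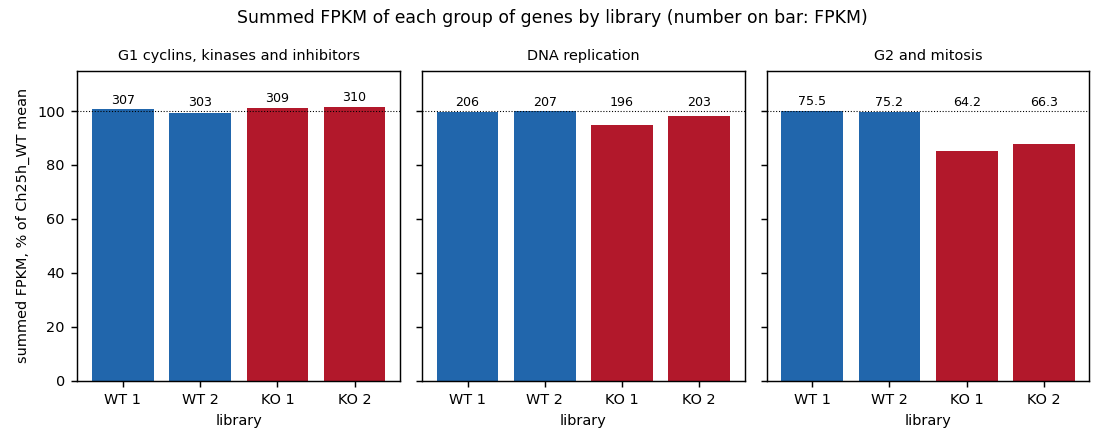
Summed FPKM of the G1, replication and mitosis genes in each library, as a percent of the Ch25h_WT mean (y axis from 0), with the sum in FPKM printed above each bar. The mitosis sums of 64.2 and 66.3 FPKM in Ch25h_KO stand below 75.5 and 75.2 FPKM in Ch25h_WT, while the G1 sums differ little. Most of the G1 sum is Cdkn1a and Cdk4, and most of the replication sum is Pcna.

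Top2a, the topoisomerase that untangles chromosomes before they part, was 6.13 and 5.38 FPKM in Ch25h_WT and 4.29 and 4.48 FPKM in Ch25h_KO. Its log2 difference of -0.33 (SE 0.075, limma adjusted p = 0.13) was the most negative of the 38 tested genes. Birc5 (survivin), part of the chromosomal passenger complex, was 5.80 and 5.96 against 4.79 and 4.98 FPKM (log2 difference -0.22, SE 0.054, limma adjusted p = 0.14). Ube2c, the ubiquitin-conjugating enzyme of the anaphase-promoting complex, was 10.1 and 10.5 against 8.27 and 8.98 FPKM (limma adjusted p = 0.16). Bub1b, a checkpoint protein at the kinetochore, was 1.97 and 2.05 against 1.76 and 1.54 FPKM (limma adjusted p = 0.22). In these 4 genes the groups did not overlap. Each 95% interval of the log2 difference lay below 0, which only restates their unadjusted p under 0.05 in limma.

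Aurkb and Cdca8, of the same complex as Birc5, varied more between replicates (SE 0.13 and 0.14 on the log2 scale). Aurkb, the kinase, was 3.2 and 4.2 FPKM in Ch25h_WT and 2.64 and 3.14 FPKM in Ch25h_KO, with no overlap but a Ch25h_WT spread wider than the gap. Cdca8 (borealin) was 6.17 and 6.51 against 4.72 and 6.43 FPKM, so only Ch25h_KO replicate 1 was low. Without that library the sign of the Cdca8 difference turned (log2 difference 0.019).

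Of the mitotic kinase and its cyclins, only Ccnb1 did not overlap between the groups. Cdk1, which starts mitosis, was 3.49 and 3.25 against 3.49 and 2.67 FPKM, and the groups overlapped. Ccnb1, its main partner, was 3.71 and 3.75 against 3.43 and 2.65 FPKM, with no overlap (log2 difference -0.23, SE 0.10, limma adjusted p = 0.29). Ccnb2, the other B-type cyclin, was 1.83 and 2.15 against 1.57 and 2.30 FPKM, on about 24 to 35 fragments per library, and the Ch25h_KO libraries held both extremes. Ccna2, which acts in S phase and G2, was 4.72 and 3.69 against 3.75 and 3.76 FPKM, with Ch25h_WT replicate 1 above the rest.

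Aurka, a spindle pole kinase, was 3.10 and 3.61 against 3.30 and 3.03 FPKM, while Tpx2, which activates it on the spindle, was 3.09 and 2.82 against 2.62 and 2.48 FPKM with no overlap. Plk1, a kinase of mitotic entry, was 2.52 and 2.74 against 1.97 and 2.48 FPKM, and Kif11, the motor that pushes spindle poles apart, was 1.47 and 1.35 against 1.00 and 1.30 FPKM. Neither overlapped between the groups. Bub1, a checkpoint kinase under the filter, was 0.819 and 0.675 against 0.317 and 0.566 FPKM, or about 35, 23, 11 and 18 fragments, and with no filter its log2 difference was -0.28 (limma adjusted p = 0.3). Cdc20, the activator of the anaphase-promoting complex, was 3.64 and 2.62 against 3.09 and 3.07 FPKM, with both Ch25h_KO values inside the range of Ch25h_WT. Cenpa, the histone variant of centromeres, was 3.81 and 3.65 against 3.93 and 2.88 FPKM. Mki67, the proliferation marker Ki-67, was 9.99 and 10.3 against 9.25 and 9.59 FPKM, with no overlap and a 95% interval of the log2 difference from -0.24 to 0.046.

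**Figure D4:**
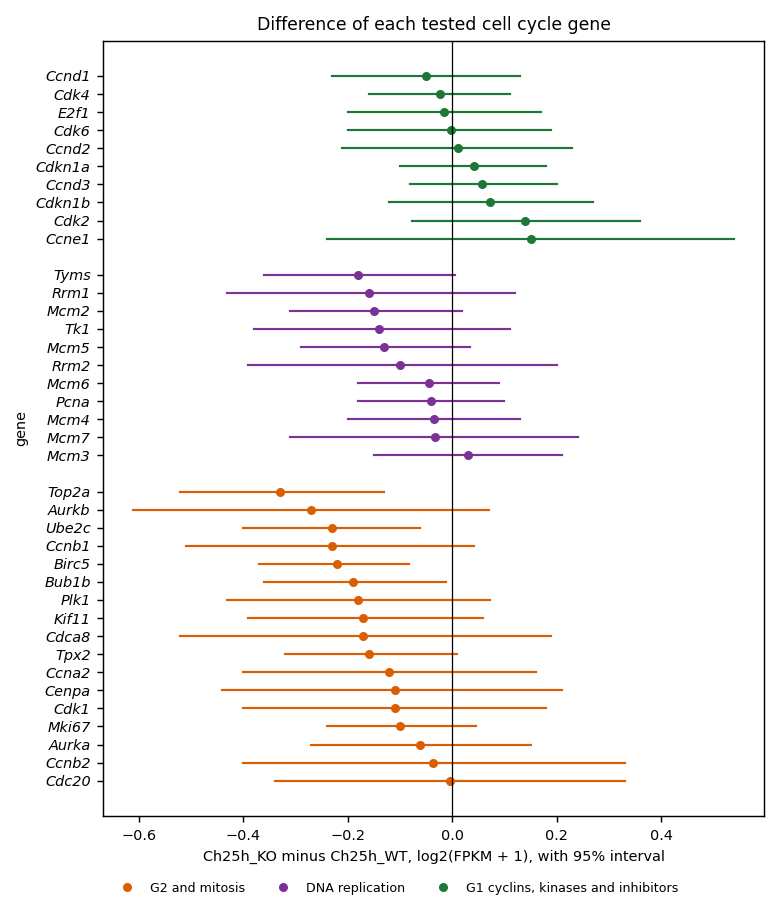
Difference of log2(FPKM + 1), Ch25h_KO minus Ch25h_WT, for the 38 tested genes (points) with the 95% interval of the limma fit (lines), grouped by step of the cycle. The G1 genes lie on either side of 0, and all 17 mitosis genes lie below 0. Cdc20 is at -0.0048, and is above 0 after median centring or quantile normalization. The intervals are not adjusted over all loci, and those of Top2a, Birc5, Ube2c and Bub1b do not reach 0.

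Replicates of the same genotype were compared in the same way, as a measure of spread. The median log2 difference of replicate 2 minus replicate 1 over the tested mitosis genes was 0.033 within Ch25h_WT and 0.046 within Ch25h_KO, against -0.17 between genotypes. Over the replication genes the same values were -0.039 and 0.088, against -0.10, so the difference between the Ch25h_KO replicates was nearly as large as that between genotypes. Over the G1 genes they were -0.024 and 0.00012, against 0.027.

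**Figure D5:**
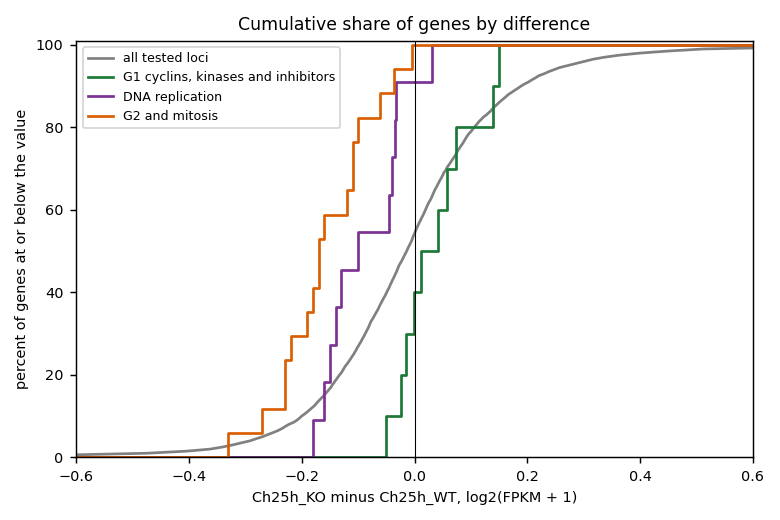
Percent of genes (y axis) at or below each difference of log2(FPKM + 1), Ch25h_KO minus Ch25h_WT (x axis), for the G1, replication and mitosis genes and for all 10074 tested loci in grey. The mitosis curve lies to the left with a median of -0.17, the replication curve has a median of -0.10, and the G1 curve (0.027) lies close to that of all loci (-0.014).

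Further genes of each step, on lists that do not hold the 40, were set beside them. None of their tested members passed over all loci with limma. Of 40 tested genes of mitotic entry, spindle, kinetochore and cytokinesis, 30 had a lower mean in Ch25h_KO and 19 (47.5%, background 30.3%) lay lower with no overlap, with a median log2 difference of -0.12. At unadjusted p under 0.05 there were 7 lower (17.5%, background 11.5%) and 3 higher (7.5%, background 9.38%). Kif2c, a kinesin that shortens microtubules at kinetochores, was 1.40 and 1.47 against 0.765 and 0.758 FPKM (limma adjusted p = 0.066). Tubb5, a beta-tubulin that non-dividing cells also make, was 236 and 241 against 187 and 182 FPKM (limma adjusted p = 0.084). On the higher side, H2afz, a histone variant, was 487 and 446 against 631 and 608 FPKM (limma adjusted p = 0.099). Racgap1, which acts in cytokinesis, was 7.07 and 6.51 against 9.14 and 8.86 FPKM (limma adjusted p = 0.10).

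Of 38 tested genes of origin licensing and the replication fork, 21 had a lower and 17 a higher mean, with a median log2 difference of -0.033, and 8 (21.1%, background 30.3%) lay lower with no overlap. Pold1, the catalytic subunit of DNA polymerase delta, was 5.10 and 4.22 against 3.77 and 3.02 FPKM, and Orc5, part of the origin recognition complex, was 6.94 and 6.64 against 6.07 and 5.04 FPKM. Chaf1b, a chaperone that places histones on new DNA, was 3.11 and 2.89 against 4.03 and 3.88 FPKM. The licensing factor Cdt1 was 15.0 and 14.3 against 17.3 and 16.0 FPKM. The adjusted p of these 4 genes lay between 0.11 and 0.24 in limma.

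Of 25 tested regulators of the E2F, RB and MuvB system and other inhibitors, 14 had a lower and 11 a higher mean (median log2 difference -0.034). Foxm1, the factor that drives genes of mitosis, was 2.21 and 2.57 FPKM in Ch25h_WT and 1.66 and 1.57 FPKM in Ch25h_KO (log2 difference -0.37, limma adjusted p = 0.11). Rbl1 (p107), a relative of RB, was 2.84 and 2.69 against 2.05 and 2.07 FPKM (limma adjusted p = 0.11). Cdkn2a, whose locus encodes the inhibitors p16 and p19ARF, was 6.46 and 6.46 against 8.36 and 8.08 FPKM (limma adjusted p = 0.10), and E2f4 was 48.3 and 44.2 against 50.4 and 51.7 FPKM. Values per locus do not tell the Cdkn2a products apart.

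Targets of p53, the factor that raises Cdkn1a, lay on both sides of 0. Of 18 tested, 6 had a lower and 12 a higher mean (median log2 difference 0.036), and none passed the adjusted threshold of limma. At unadjusted p under 0.05 there was 1 lower (5.56%, background 11.5%) and 3 higher (16.7%, background 9.38%). Sesn2, a stress-induced inhibitor of mTORC1, was 20 and 19.8 against 25.8 and 24.5 FPKM, and Btg2, an antiproliferative factor, was 33.3 and 33.5 against 38.6 and 39.4 FPKM. The death receptor gene Fas was 66.9 and 63.4 against 50.1 and 50.4 FPKM, and Ei24 was 28.7 and 30.6 against 26.8 and 26.8 FPKM.

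Markers of the labelled cells and of other cells were read beside these values. The 8 macrophage markers were all tested and summed to 26726 and 27673 FPKM in Ch25h_WT and 28801 and 28102 FPKM in Ch25h_KO. Most of this sum was Lyz2, at 19741 and 20537 against 20237 and 19566 FPKM. Of the 8 markers, 6 had a lower mean in Ch25h_KO. Adgre1 (418 and 425 against 381 and 388 FPKM) and Csf1r (306 and 316 against 274 and 291 FPKM) lay lower with no overlap. Fcgr1 and Cd14 were higher, and Cd14 was 5178 and 5288 against 6870 and 6751 FPKM. Mast cell markers had a lower mean in Ch25h_KO for 6 of 8 tested (10 listed), 5 of them at unadjusted p under 0.05 in limma (62.5% of the 8, background 11.5%), with a median log2 difference of -0.30. Cpa3 was 31.7 and 31.0 against 20.2 and 17.9 FPKM. Hdc was higher in Ch25h_KO, at 158 and 164 against 213 and 227 FPKM, and the list summed to 383 and 395 against 372 and 388 FPKM. B cell markers summed to 365 and 370 against 339 and 358 FPKM, with 4 of 7 tested lower. The 3 tested neutrophil markers of 9 found were all higher, and the list summed to 113 and 122 against 166 and 166 FPKM. The others lay under the filter and on both sides. Camp was 0.906 and 1.36 against 0.88 and 0.471 FPKM, and Cxcr2 was 0.507 and 0.665 against 0.492 and 0.428 FPKM. Mmp8 and Elane also had lower means in Ch25h_KO, while Retnlg and Ngp had higher means. Ngp was at 0 in both Ch25h_WT libraries and Elane at 0 in 3 libraries. T and NK cell markers summed to 22.5 and 26.0 against 26.9 and 25.2 FPKM. Erythroid markers summed to 26.1 and 30.1 against 37.9 and 38.9 FPKM, and fibroblast and mesothelial markers to 1.51 and 1.16 against 4.62 and 3.91 FPKM. Markers of resident large peritoneal macrophages summed to 2999 and 3092 against 2723 and 2896 FPKM, with 3 of 8 means lower and 5 higher. Fn1 made up most of that sum, at 1991 and 2031 against 1723 and 1889 FPKM, and Cd9 and Vsig4 were the other lower ones. Icam2 was higher in Ch25h_KO, at 156 and 159 against 207 and 213 FPKM, as was Timd4, at 46.3 and 47.6 against 59.7 and 63.9 FPKM. The Gata6 groups overlapped. The part of these cells in the values of the cell cycle genes was not tested.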

How the data were processed

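RNA-seq values of 4 libraries were analysed. The deposited values were taken as FPKM from their range, decimals and Cufflinks-type locus names, since the table's header names no unit. Per the submitters' processing notes, the authors used TopHat2 2.0.14 and Cufflinks 2.2.1, after bcl2fastq, with mm9 as the build. For annotation, strand and filters the sources used here give nothing. The 24192 lines were joined into 23735 loci, and 0 sample columns were left out.

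The 10074 loci averaging 1 FPKM or more over the 4 libraries were tested with limma 3.58.1 (R 4.3.3) on log2(FPKM + 1), with genotype as the term and Benjamini-Hochberg adjustment over all of them, two-sided. This scale understates changes of low genes. The genes and lists were chosen with earlier results of these data known, so lists are described by counts and medians, with no list test. Named genes are the 40 members and, from each other list, at most 2 higher and 2 lower with the smallest p. Ch25h and Apoe were named as a check of the labels, and markers only where needed. Fragments were implied from the steps of low values (whole multiples in 94.8% of 2274 loci under 0.2 FPKM, tolerance 0.01) and the longest GENCODE vM21 transcript, so they are approximate. Low loci differed between replicates (mean chi-square 1.32 within Ch25h_WT and 1.34 within Ch25h_KO), so their values were not copies of each other. The chi-square that counting noise alone would give with such implied fragments was not calibrated. Whether a pair was 1 library sequenced again therefore cannot be told. On simulated log2(FPKM + 1) values of the 10074 loci, the test recovered 57.2% of 1.5-fold, 80.3% of 2-fold and 97.0% of 4-fold changes, with 3.58% false calls. These are folds of FPKM + 1, and for low genes such a fold is a larger fold of FPKM. These percentages are over all loci, and recovery among the genes of the cycle alone was not measured. Changes under 1.5-fold of FPKM + 1 were not simulated. The percentages therefore do not show how often differences as small as that of Top2a would be found (log2 difference -0.33 on that scale, 1.31-fold in FPKM). Promoter coordinates are of GRCm38.p6, not mm9, and served only for the promoter windows. A planned protein comparison was not run.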

Additional observations from a re-analysis of the deposited data

How the results depend on the processing

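In each of the 11 alternatives run, 0 of the 38 tested genes of the cycle were under the adjusted threshold of limma, and 21 of the 38 kept the sign of their difference throughout. At unadjusted p under 0.05 in limma the main count was 4, all lower (10.5%, background 11.5%). The median of the mitosis genes stayed below 0 throughout, at -0.20 with a pseudocount of 0.1, -0.22 among loci of at least 5 FPKM, -0.16 after median centring, -0.14 after quantile normalization and -0.17 to -0.13 with a library left out. The median of all members was -0.04 among loci of at least 5 FPKM, -0.07 after quantile normalization and -0.12 to -0.049 with a library left out. The replication median was -0.043 at 5 FPKM and -0.15 to -0.032 with a library left out. The G1 median was 0.049 at 5 FPKM and -0.0012 to 0.046 with a library left out.

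Among loci of at least 5 FPKM fewer members were tested: 13 had a lower mean and 10 of these did not overlap, of which 5 and 4 were mitosis genes, and 1 G1 mean was lower. The members tested there were Ccnd2, Ccnd3, Cdk4, Cdk2, Cdkn1a, Cdkn1b, Mcm2 to Mcm7, Pcna, Rrm1, Mki67, Top2a, Birc5, Cdca8 and Ube2c. Of the 7221 loci tested there, 53.8% had a lower mean and 31.4% lay lower with no overlap. After quantile normalization 2 G1 means were lower. With a pseudocount of 0.1, 1 replication gene was lower at unadjusted p under 0.05 in limma (6 members in all). In the main setting 11.5% of all loci were lower at that p. With no filter on low values, 1 G1 gene, Ccne2, was lower at that p and 2 lay lower with no overlap (background 25.3%). With a library left out, unadjusted p under 0.05 on the lower side was reached by 3 to 8 members, 0 to 2 replication genes and 2 to 6 mitosis genes, and on the higher side by 0 to 1 member, a G1 gene. Lower G1 means then numbered 2 to 5, and G1 genes lower with no overlap 1 to 3, where 40.5% to 42.9% of all loci lay lower with no overlap, against 30.3% with all libraries.

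The other 17 members changed sign in at least 1 alternative. With median centring, the differences were 0.0081 for Cdk6 and 0.0047 for Cdc20, and with quantile normalization 0.028 for Cdk6, 0.0088 for E2f1 and 0.016 for Cdc20. With a library left out the ranges were -0.12 to 0.015 for Ccnd1, -0.09 to 0.11 for Ccnd2, -0.084 to 0.081 for Cdk6, -0.013 to 0.32 for Ccne1, -0.093 to 0.061 for E2f1 and -0.009 to 0.16 for Cdkn1b. They were -0.029 to 0.092 for Mcm3, -0.088 to 0.021 for Mcm4, -0.17 to 0.10 for Mcm7 and -0.24 to 0.051 for Rrm2. Among mitosis genes they were -0.25 to 0.037 for Cdk1, -0.27 to 0.02 for Ccna2, -0.22 to 0.15 for Ccnb2, -0.15 to 0.022 for Aurka, -0.18 to 0.18 for Cdc20, -0.36 to 0.019 for Cdca8 and -0.28 to 0.06 for Cenpa.

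Over all loci, 21 passed lower and 23 higher. These counts were 14 and 16 with a pseudocount of 0.1, 7 and 11 with no filter, 77 and 98 at 5 FPKM, 379 and 407 with trend and robust options, and 5 to 16 and 4 to 9 with a library left out, where the lone library is assumed to vary like the others. With the replicate number as a replicate block they were 4 and 2. Same-numbered libraries did not deviate together over all loci (correlation 0.0123). That value cannot show how the numbers were assigned, and whether they pair the samples is not given. The cause of these shifts was not tested. Ccne2 and Bub1 lay under the filter of 1 FPKM and were tested only with no filter on low values.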

Other observations

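Histone genes with names that start with Hist1h, Hist2h or Hist3h were mostly at the floor. Most are replication-dependent, with transcripts that lack poly(A) tails in dividing cells. The list was taken by name and includes a pseudogene (Hist3h2bb-ps), so its values are not a reading of S phase. Of 63 such loci, 33 were at 0 in all 4 libraries and 4 were tested, with none past the adjusted threshold in limma. At unadjusted p under 0.05, 1 was higher (25% of the 4, background 9.38%). Hist1h4i was 3.57 and 2.23 FPKM in Ch25h_WT and 5.2 and 4.64 FPKM in Ch25h_KO, Hist1h1c was 3.44 and 1.55 against 4.34 and 4.11 FPKM, and Hist3h2a was 13.2 and 15.6 against 11.7 and 13.1 FPKM. In the first 2 of these genes Ch25h_WT replicate 2 was the lowest library. Near-identical copies make values of this family uncertain.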
